A study of Mus musculus with 48 samples.

Results

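The regions described here are the captured DNA regions nearest to the centromeres of the mouse autosomes. They were taken from the authors' peak list as every region of chromosomes 1 to 19 with a start below 5 Mb, a rule that uses position only. It gave 1404 of the 95882 regions of the list, and 93131 other regions lay on the autosomes. The series compared methylated DNA of the intestine between 7 GermFree and 5 ConvR mice (ConvR is the label's term), with 4 libraries per mouse, from its duodenum, its jejunum, its ileum and its colon. Of the 48 libraries, 28 are therefore GermFree and 20 ConvR. Strain, age and sex are not given in the labels used here, no treatment is named, and each library is DNA of a whole section with its mixture of cells. Fragments carrying methylated CpG were pulled down with a methyl-CpG-binding domain (MBD) protein and sequenced, so a count rises with both the methylation and the number of CpG sites of a region.

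Mouse chromosomes carry the centromere at one end, as long arrays of satellite repeats that the genome assembly mostly leaves out. The mm10 assembly therefore starts at about 3 Mb of each autosome, and the rule covers the first 2 Mb of assembled sequence. DNA beside centromeres is known for recent duplications, pseudogene families and repeat arrays, which are generally heavily methylated in adult tissue. Some reads from such copies match several places. The sources used here do not give how the authors counted those reads, so in families of similar copies a count cannot be assigned to 1 copy with certainty.

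The deposited counts summed to between 1007560 and 3033782 per library, with a median of 2122529. The 1404 regions held 20343 to 55363 counts of a library, or 1.67% to 2.04%, and the median region had 7 to 23 counts depending on the library. Levels below are CPM (counts scaled to a common library size) scaled with edgeR's TMM factors, and capture density is CPM per kb of region. The mice are the replicates, and the 4 sections of a mouse are separate libraries of the same animal.

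A short look at sequence covers the gene starts that captured regions overlapped. RefSeq gene-start windows (build GRCm38.p6, to which mm10 coordinates refer) were cut to the 250 bases before each start and called captured where a region of the list overlapped them. An overlap of any length counted, and the 1404 regions were up to 18820 bp wide. Counts of a region therefore cannot be placed on the 250 bases themselves. Within the first 5 Mb, 39 of 619 such windows were captured (6.30%), against 2670 of 30777 on the rest of the autosomes (8.68%). The captured windows carried a median of 4 CpG dinucleotides and the uncaptured ones a median of 7. Of the 174 windows with at least 15 CpGs, 1 was captured, that of the predicted gene Gm46840. Among long noncoding RNA genes 25 of 170 windows were captured (14.7%), close to the 1564 of 11141 elsewhere, and among protein-coding genes 14 of 449 (3.12%, against 5.63% elsewhere). The 4 captured examples below lie in regions that differed between sections, and the window of Dnmt3a, which encodes a de novo DNA methyltransferase, is shown beside them as an uncaptured CpG-rich start. Each is written 5′ to 3′ along the gene with CG in capitals, a motif of 2 letters that reads the same on both strands and that 92.3% of the autosomal windows beyond 5 Mb contain.
Gm46840 (captured, chr4:3230932-3231181, plus strand, 21 CpGs): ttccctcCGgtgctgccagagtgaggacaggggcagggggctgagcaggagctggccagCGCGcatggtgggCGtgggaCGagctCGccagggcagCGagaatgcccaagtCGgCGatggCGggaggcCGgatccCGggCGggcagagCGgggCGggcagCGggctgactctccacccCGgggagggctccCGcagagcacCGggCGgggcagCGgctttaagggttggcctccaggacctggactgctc
Ppp1r14c (captured, chr10:3365900-3366149, plus strand, 5 CpGs): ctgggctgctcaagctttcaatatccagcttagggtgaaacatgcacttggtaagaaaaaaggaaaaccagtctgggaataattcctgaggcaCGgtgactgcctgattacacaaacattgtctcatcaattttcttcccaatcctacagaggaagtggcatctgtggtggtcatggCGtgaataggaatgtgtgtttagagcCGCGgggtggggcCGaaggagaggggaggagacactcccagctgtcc
Gm33862 (captured, chr11:3136826-3137075, plus strand, 4 CpGs): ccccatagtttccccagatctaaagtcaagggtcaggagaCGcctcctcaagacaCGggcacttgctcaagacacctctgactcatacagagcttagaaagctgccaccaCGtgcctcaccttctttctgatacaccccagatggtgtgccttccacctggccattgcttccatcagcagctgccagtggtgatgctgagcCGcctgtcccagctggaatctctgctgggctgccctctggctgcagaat
Gm38761 (captured, chr6:4654304-4654553, plus strand, 6 CpGs): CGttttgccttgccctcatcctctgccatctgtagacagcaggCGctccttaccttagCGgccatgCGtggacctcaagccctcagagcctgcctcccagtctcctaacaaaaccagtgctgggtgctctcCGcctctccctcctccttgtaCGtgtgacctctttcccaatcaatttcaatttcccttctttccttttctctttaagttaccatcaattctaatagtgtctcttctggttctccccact
Dnmt3a (not captured, chr12:3806730-3806979, plus strand, 38 CpGs): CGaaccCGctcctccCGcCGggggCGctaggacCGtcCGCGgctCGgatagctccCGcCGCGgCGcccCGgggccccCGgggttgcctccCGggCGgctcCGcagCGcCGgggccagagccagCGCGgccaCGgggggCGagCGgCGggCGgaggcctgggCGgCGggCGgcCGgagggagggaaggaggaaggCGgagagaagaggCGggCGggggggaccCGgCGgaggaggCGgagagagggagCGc

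Summed over regions, capture was denser beside the centromeres than elsewhere on the autosomes. Summed over their 2.50 Mb of captured length, the 1404 regions gave 7.5 ± 0.267 CPM per kb (SD over 12 mice), against 5.81 ± 0.0521 in regions starting from 5 to 7 Mb, 5.74 ± 0.0456 from 7 to 9 Mb, 5.89 ± 0.0368 from 9 to 11 Mb and 5.89 ± 0.0898 from 11 to 13 Mb. Over each mouse's 4 sections the log2 ratio of this density to that of the other autosomal regions averaged 0.39 ± 0.0463 (SD, n = 12) and lay above 0 in 12 of 12 mice, between 0.31 and 0.442 (exact sign-flip permutation test, two-sided p = 0.000488, the smallest that 12 mice allow). All mice were counted over the same regions, so this p-value measures the spread between mice and not that between regions. GermFree mice had a ratio of 0.397 ± 0.0429 (n = 7) and ConvR mice of 0.38 ± 0.0541 (n = 5), a difference within the spread of the mice (exact permutation test, two-sided p = 0.508).

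Much of the excess lay in few regions. Without the 10 densest regions the log2 density ratio was 0.174. The median density was 6.64 CPM per kb, close to the 6.19 of other autosomal regions, and the median widths were 1145 and 1207 bp. At or above 15 CPM per kb stood 24 of the 1404 regions (1.71%), against 138 of the other autosomal regions (0.148%) and 3 of the 1217 regions that start from 5 to 7 Mb (0.247%). The 381 regions starting in the first 0.5 Mb of assembled sequence held 50.5% of the summed CPM. Taken alone, they had a log2 density ratio of 0.876 ± 0.0917 (SD, n = 12), and the remaining 1023 regions had 0.02 ± 0.00777. The 0.5 Mb boundary was chosen after the values were seen, so these numbers are given without a test.

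**Figure D1:**
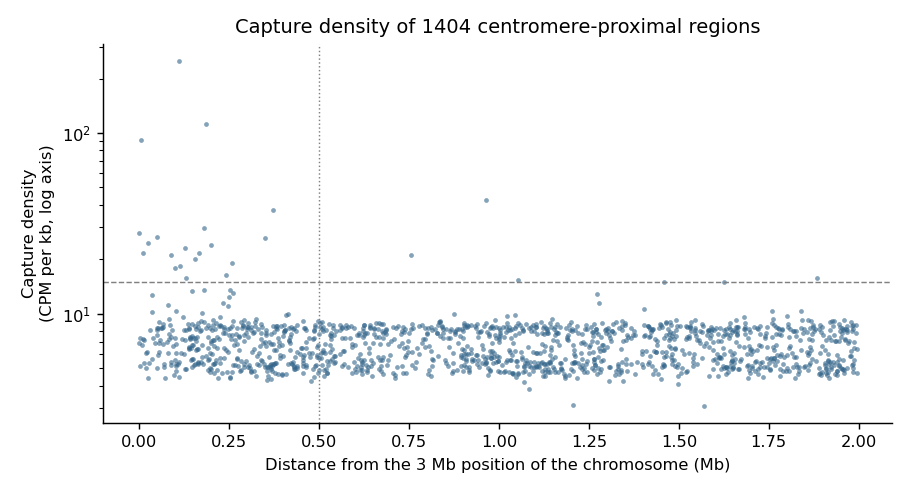
Capture density of each of the 1404 regions (mean over 48 libraries, CPM per kb, log axis) against its distance from the 3 Mb position of its chromosome. Each point is a region, the dashed line marks 15 CPM per kb and the dotted line 0.5 Mb, and most points above 15 CPM per kb lie left of the dotted line.

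The densest region lay on chromosome 12 (3109459 to 3110475), with no RefSeq gene within 50 kb. It gave 253.6 ± 49.8 CPM (SD, n = 12 mice, 197.1 to 375.9), or 249.3 CPM per kb, and was the sixth densest of all autosomal regions. The region with the most counts lay over Sfi1, which encodes a centrosome protein and has many partial copies in the mouse genome (chromosome 11, 3184299 to 3200058). Its level was 1766 ± 158 CPM (SD, n = 12 mice), between 1452 and 1935, and it alone made up 9.4% of the CPM of all 1404 regions. A smaller region of Sfi1 (3179130 to 3180021) was among the 10 densest as well, with 29.8 CPM per kb.

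Chromosome 18 followed, with 91.7 CPM per kb at 3004506 to 3007146, nearest to the vomeronasal receptor pseudogene Vmn1r-ps151. Next in order came regions on chromosome 2 (3964167 to 3964956, 42.8 CPM per kb, no gene within 50 kb) and chromosome 13 (3372700 to 3374386, 37.6 CPM per kb, nearest to Gm16505). A pair of long regions at the very start of chromosome 9 (2999834 to 3008075 and 3025149 to 3032803), nearest to the microRNA gene Mir101c, gave 231.6 ± 34.5 and 188.9 ± 33.4 CPM (SD, n = 12 mice). Together the 10 densest regions held 15.4% of the summed CPM. Their median coefficient of variation over the 12 mice was 12.4%, against 13.9% over all 1404 regions and 13.5% over other autosomal regions.

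The number of regions per chromosome ran from 19 on chromosome 1 to 143 on chromosome 19. Chromosome 11 held 20.4% of the summed CPM in 126 regions, and its density was 13.7 CPM per kb. Chromosome 9 stood next with 12.5 CPM per kb, and chromosomes 19 (5.52), 7 (5.65), 17 (5.80) and 8 (5.83) were lowest. Of the 1404 regions, 946 overlapped a RefSeq gene (67.4%, against 70.5% of other autosomal regions), 96 lay within 5 kb of a gene, 303 within 50 kb, and 59 had none within 50 kb.

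The first comparison concerned the sections of the gut. The share of library counts falling in the 1404 regions was higher in the colon than in the duodenum or ileum. In GermFree mice the colon share ran from 1.965% to 1.997% with a median of 1.98%, and in ConvR mice 1 to 5 it was 1.95%, 1.93%, 1.80%, 2.04% and 1.89%. In the duodenum the GermFree share ran from 1.73% to 1.93% with a median of 1.89%, and the ConvR values were 1.86%, 1.87%, 1.75%, 1.85% and 1.78%. The ranges overlapped, but within each mouse the colon lay higher in 12 of 12. The mean rose from 1.84% ± 0.0694 to 1.96% ± 0.0624 (SD, n = 12; exact paired sign-flip permutation test, two-sided p = 0.000488, 0.00195 adjusted over 4 section pairs). Against the ileum (1.86% ± 0.0895) the colon was higher in 11 of 12 mice (exact paired permutation test, adjusted p = 0.00488). Ileum against duodenum (adjusted p = 0.701) and jejunum against duodenum (0.855) did not pass the same exact permutation test. The colon comparisons share the colon libraries.

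The first 0.5 Mb and the rest differed in this. In the first 0.5 Mb the share was 1.04% ± 0.0715 in the colon and 0.907% ± 0.0731 in the duodenum (SD, n = 12), higher in the colon of 12 of 12 mice. Over the remaining 1023 regions it was 0.922% ± 0.0115 in the colon and 0.936% ± 0.0117 in the duodenum, higher in the colon of 1 of 12. With autosomal counts alone as the total, the latter values were 0.968% ± 0.00813 and 0.974% ± 0.0091, with the colon higher in 4 of 12 mice. These splits were added after the values were seen and carry no test.

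Between GermFree and ConvR mice the total share did not differ beyond the spread. Averaged over sections GermFree mice had 1.88% ± 0.0506 (SD, n = 7) against 1.87% ± 0.0609 for ConvR mice (SD, n = 5; exact permutation test, two-sided adjusted p = 0.915 over 5 tests), and the adjusted p was between 0.627 and 0.985 in the single sections. In the colon the 7 GermFree mice were close together for the first 0.5 Mb, with 1.07% ± 0.01, while the 5 ConvR mice spread over 0.992% ± 0.0999 on both sides of them. Over the remaining 1023 regions the mean over sections was 0.925% ± 0.00511 in GermFree and 0.937% ± 0.00407 in ConvR mice, and 6 of 7 GermFree mice lay below all ConvR mice. With autosomal counts as the total these values were 0.968% ± 0.00396 and 0.974% ± 0.00402, with 5 of 7 GermFree mice below.

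**Figure D2:**
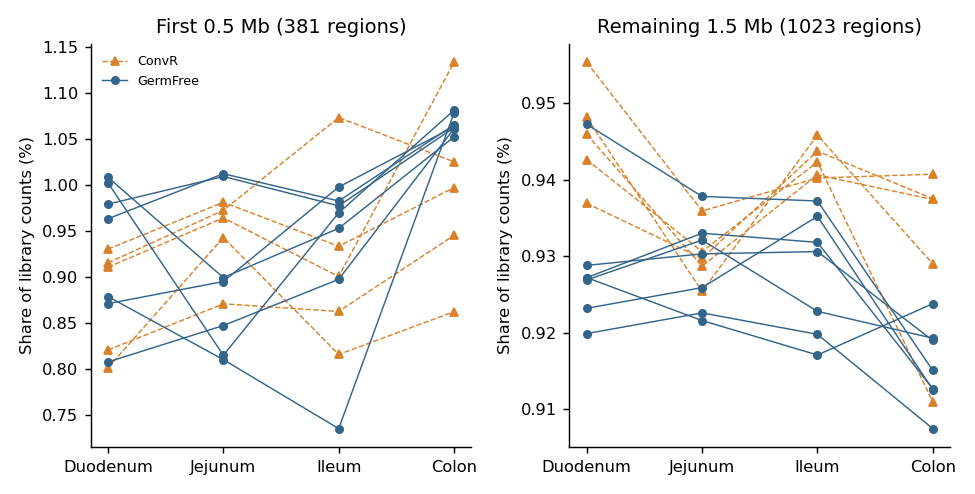
Share of library counts (%) in the 381 regions of the first 0.5 Mb (left) and the 1023 remaining regions (right), by section, with 1 line per mouse (solid with circles for GermFree, dashed with triangles for ConvR). The axes do not start at 0. On the left the colon lies above the duodenum in 12 of 12 mice, and on the right in 1 of 12.

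Region by region, captured DNA differed between colon and duodenum at 47 of the 1404 regions, 41 of them higher and 6 lower in the colon (3.35%, against 1.21% of all 95876 regions tested, 0.91% higher and 0.3% lower; edgeR quasi-likelihood test, Benjamini-Hochberg adjusted p under 0.05). Between colon and ileum 69 differed, 60 higher and 9 lower (4.91%, against 2.19% of all, 1.48% higher and 0.708% lower). These tests had no term for the mouse. With the mouse as a block, since the 4 sections come from the same animal, the counts were 79 and 106 and included all 47 and all 69. The share of all regions called in that fit is not given here. The comparisons share the colon libraries, and 35 regions passed in both, which is 74.5% of the first list and 50.7% of the second.

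The calls gathered at the start of the assembled sequence. Of the 41 regions higher in colon than duodenum 34 began in its first 0.5 Mb, as did 45 of the 60 higher than ileum. In that interval 9.19% and 12.6% of regions passed, and in the next 3 intervals of 0.5 Mb between 0.319% and 1.71% and between 0.958% and 2.57%. Per mouse, the median log2 difference of colon minus duodenum (on CPM plus a pseudocount of 1) over the 381 regions averaged 0.0996 ± 0.0664 (SD, n = 12), above 0 in 12 of 12 mice, and in the other intervals it averaged between -0.0197 and 0.00492. The regions called higher in colon than duodenum were wide, with a median of 5390 bp against 1145 bp over the 1404 regions, and had a median log2 difference of 0.38. Their median level was also higher, 46.98 CPM against 7.234 over the 1404 regions. How far width and level bore on which regions passed was not tested. The number of called regions changed when single mice were left out. The share of all regions called in those fits is not given here, and the cause of the change was not tested. For colon against duodenum 0 regions were called without ConvR mouse 5, 11 without ConvR mouse 4, 17 without ConvR mouse 1, and 20, 25 and 15 without GermFree mouse 2, 4 or 6. For colon against ileum the count was 16 without GermFree mouse 4, 27 without ConvR mouse 2, 37 without ConvR mouse 4 and 27 without ConvR mouse 5.

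**Figure D3:**
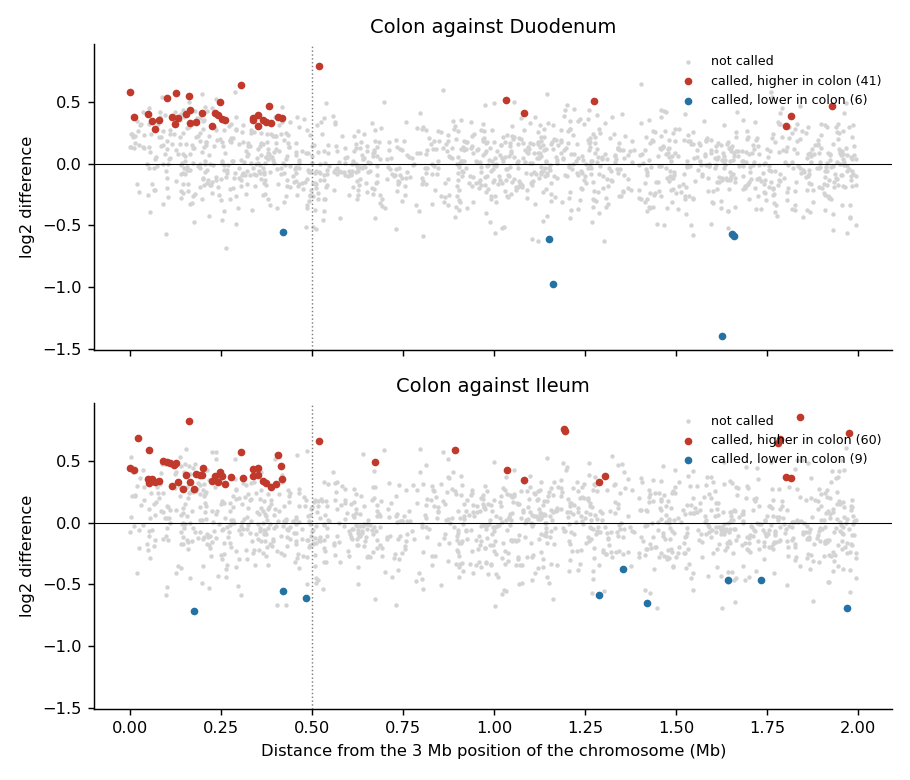
Log2 difference (edgeR fit) of each of the 1404 regions in colon against duodenum (top) and colon against ileum (bottom), by distance from the 3 Mb position of the chromosome. Each point is a region, coloured points passed the test and the dotted line marks 0.5 Mb. Of the called higher regions, 34 of 41 (top) and 45 of 60 (bottom) lie left of that line.

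Neighbouring regions were called together on several chromosomes. On chromosome 11 the block ran over the copies of Pisd, which encodes a mitochondrial enzyme of phospholipid synthesis, and over Sfi1. The region over the pseudogene Pisd-ps1 (3126647 to 3127923) ran from 20.7 to 43.6 CPM in the 12 colon libraries, with a median of 38.6, and from 10.9 to 30.3 in the duodenum, with a median of 27.6. The ranges overlapped, yet the colon was higher in 12 of 12 mice, by 0.57 on the log2 scale (SE 0.104; edgeR adjusted p = 0.00408). This call was lost without ConvR mouse 5 (log2 0.52). Beside it, the region that holds the Gm33862 start printed above (3129708 to 3142992, overlapping Sfi1 and Pisd-ps1) had a log2 difference of 0.37 (edgeR adjusted p = 0.00922). The dense Sfi1 region of 1766 CPM had a similar log2 difference, 0.37, that did not pass (edgeR adjusted p = 0.0597). On chromosome 11, 5 regions passed for colon against duodenum. The regions of Sfi1 other than its densest, and those of Ppp1r14c, Gm46840 and the first Gm38761 region below, were named after their values were seen, as neighbours of called regions or holders of a printed start.

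Chromosomes 10 and 16 had 9 calls each for colon against duodenum, chromosome 4 had 6, and chromosome 14 had 5. On chromosome 10, Ppp1r14c, which encodes an inhibitor of protein phosphatase 1, held 6 regions, and 3 of them passed, with log2 differences of 0.36, 0.33 and 0.37. The first of these, 3364852 to 3383503 at 126.5 CPM, contains the Ppp1r14c start printed above (edgeR adjusted p = 0.0125). On chromosome 4 the region with the CpG-rich start of Gm46840 (3224758 to 3243577, 181.3 CPM) had a log2 difference of 0.31 against the duodenum and 0.34 against the ileum (edgeR adjusted p = 0.0353 and 0.0122). Like all 47 calls for colon against duodenum, these were lost without ConvR mouse 5.

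The region within 5 kb of H60c, a gene of a ligand of the activating natural killer receptor NKG2D (chromosome 10, 3247409 to 3251635), ran from 19.4 to 46.3 CPM in the colon, with a median of 30.7. In the duodenum it ran from 14.2 to 30.6, with a median of 22.1. The colon lay higher in 11 of 12 mice (log2 0.50, SE 0.107; edgeR adjusted p = 0.00913), and the call was lost without ConvR mouse 4 (0.41) or 5 (0.50). Among the regions higher in colon than duodenum, the largest log2 difference was that of a short region of the predicted gene Gm30033 (chromosome 10, 3519336 to 3519836), with a median of 5.91 CPM in the colon (3.45 to 7.25) and 3.48 in the duodenum (1.93 to 4.56). It was higher in the colon of 12 of 12 mice (log2 0.79, SE 0.196; edgeR adjusted p = 0.0216), and did not pass without ConvR mouse 4 (0.80) or 5 (0.68) or GermFree mouse 6 (0.73).

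Other regions higher in colon than duodenum lay at or near predicted genes and vomeronasal receptor genes, which encode pheromone receptors. On chromosome 18 the region nearest to Vmn1r-ps151 (3000246 to 3002559) ran from 11.2 to 24.2 CPM in the colon with a median of 19.6, and from 8.86 to 17.3 in the duodenum with a median of 12.8. It was higher in the colon of 12 of 12 mice (log2 0.58, SE 0.112; edgeR adjusted p = 0.00534), and was lost without ConvR mouse 5 alone (0.55). The log2 differences at Gm4111, Vmn1r2, Gm30674, Gm32966, Gm40261 and Gm26650 were 0.64, 0.55, 0.53, 0.51, 0.50 and 0.47 (edgeR adjusted p between 0.0163 and 0.0485), with the colon higher in 10 or 11 of 12 mice. Each of these 6 was lost without ConvR mouse 2, 4 or 5, and all but Gm4111 without GermFree mouse 6 as well. Over the 12 fits that leave out 1 mouse, the calls were lost in 3, 11, 4, 7, 9 and 9, in the order given.

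For colon against ileum, a region next to the predicted gene Gm4106 (chromosome 16, 3162138 to 3163620) was called without any single mouse as well. Its colon level ran from 4.74 to 17.2 CPM with a median of 11.2, and its ileum level from 3.75 to 9.10 with a median of 5.84. The ranges overlapped and the colon was higher in 11 of 12 mice (log2 0.82, SE 0.164; edgeR adjusted p = 0.00262). A short region inside Evi5l, which encodes a Rab GTPase-activating protein, was higher in colon by 0.76 (log2; chromosome 8, 4191052 to 4191628; SE 0.204; edgeR adjusted p = 0.0242). That call was lost without ConvR mouse 1 (0.75) or 2 (0.71) or GermFree mouse 1 (0.72) or 4 (0.68). The largest log2 difference in this direction was 0.86, at a region of Gm26650 on chromosome 14 (4838395 to 4838822; SE 0.225; edgeR adjusted p = 0.0201), where the colon was higher in 9 of 12 mice and the lowest ileum library was at 0. It was lost without ConvR mouse 5 or GermFree mouse 4 (0.64 to 0.84). At Gm10557, Ucma, Gm10232, Gm30033 and Gm40658 the values were 0.75, 0.73, 0.69, 0.66 and 0.65, and at regions without a gene within 50 kb on chromosomes 3 and 2 they were 0.59 and 0.59 (edgeR adjusted p between 0.0176 and 0.045). Each of these 7 was lost without ConvR mouse 5 or GermFree mouse 4, and without between 2 and 7 other mice.

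Fewer regions were lower in the colon, with median widths of 1020 bp against the duodenum and 1448 bp against the ileum, and 5 of 6 and 6 of 9 of them overlapped a gene. DESeq2 called 1 region lower against the duodenum and 3 against the ileum. It gave an adjusted p for 196 and 369 of the 1404 regions. Against the duodenum the regions called lower by edgeR lay in Mthfd1l, a gene of mitochondrial folate metabolism, in Coro1b, a gene of an actin-binding protein, in the predicted genes Gm38761 and Gm34259, and near Gm19163. In Mthfd1l (chromosome 10, 4160270 to 4160686) the colon ran from 0.411 to 6.19 CPM, with a median of 2.42, and the duodenum from 1.38 to 6.10, with a median of 4.82. The colon was lower in 11 of 12 mice (log2 -0.98, SE 0.241; edgeR adjusted p = 0.0206), with the call lost without ConvR mouse 5 (-0.76) or GermFree mouse 4 (-0.90). Both Gm38761 regions were lower, at 4652938 to 4654664, which holds the start printed above (log2 -0.57; edgeR adjusted p = 0.0169), and at 4658746 to 4659701 (log2 -0.59, lower in 12 of 12 mice; edgeR adjusted p = 0.0398). The second of them did not pass without ConvR mouse 1, 4 or 5 or GermFree mouse 1, 2, 4, 5, 6 or 7 (-0.67 to -0.47 over all 12 such fits). All 6 lower regions, those of Coro1b, Gm34259 and Gm19163 included, lost the call without ConvR mouse 5. The Coro1b call was lost in 10 of the 12 such fits. At Gm34259 the log2 difference of -1.395 was -0.4918 without ConvR mice 1 and 3, and was then not called. Its duodenum level was 27.43 ± 43.2 CPM (SD) with a median of 8.549, against a colon median of 7.172.

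Against the ileum, a lower region lay in Akap12, a gene of a signalling scaffold protein (chromosome 10, 4353020 to 4357885), with medians of 22.3 CPM in the colon (14.9 to 34.9) and 29.9 in the ileum (21.98 to 38.1). It was lower in 10 of 12 mice (log2 -0.37, SE 0.0893; edgeR adjusted p = 0.0103), and not called without ConvR mouse 2 (-0.33) or 5 (-0.35). In Adcy9, which encodes an adenylyl cyclase (chromosome 16, 4418007 to 4418961), colon minus ileum was -0.65 on the log2 scale (SE 0.168; edgeR adjusted p = 0.0188), with the colon lower in 11 of 12 mice and the call lost without ConvR mouse 2 (-0.54) or 4 (-0.59) or GermFree mouse 7 (-0.58). At the pseudogene Speer6-ps1 (chromosome 13, 3174885 to 3175802) the medians were 6.37 CPM in the colon (4.42 to 14.7) and 12.4 in the ileum (6.41 to 16.5). The colon was lower in 10 of 12 mice (log2 -0.72, SE 0.153; edgeR adjusted p = 0.0041), with the call lost without ConvR mouse 2 (-0.58). Near Mrpl11, Gm11787 and Gm19163 and in Gm7451 the log2 values were -0.69, -0.61, -0.55 and -0.46 (edgeR adjusted p between 0.00946 and 0.0493). These 4 were lost without ConvR mouse 2 or GermFree mouse 4, and all but Gm19163 also without ConvR mouse 1, 4 or 5 or GermFree mouse 1. Over the 12 fits that leave out 1 mouse, the calls were lost in 8, 7, 2 and 9, in the order given.

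Along the small intestine no region passed. For ileum against duodenum edgeR called 0 of the 1404 regions (67 at an unadjusted p under 0.05; 2 of all regions called, 0.00209%), and for jejunum against duodenum 0 as well (84 at an unadjusted p under 0.05; 0.0% of all regions). DESeq2 gave none in either. Blocking on the mouse, edgeR called 1 region for jejunum against duodenum. The smallest p values belonged to regions in Naa60, an acetyltransferase gene (log2 -0.69, SE 0.175; edgeR adjusted p = 0.578), and in Tmc4, a gene of a transmembrane channel-like protein (log2 -0.63, SE 0.185; edgeR adjusted p = 0.787), both for ileum against duodenum.

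The second comparison was between GermFree and ConvR mice. With the 4 sections of each mouse summed, edgeR called 13 of the 1404 regions, 8 higher and 5 lower in GermFree mice (0.926%, against 0.475% of all 95882 regions; 0.431% of all were called higher and 0.0438% lower). They lay on 6 chromosomes, with 6 of the 13 on chromosome 17. All 7 GermFree mice stood on 1 side of all 5 ConvR mice at 17 of the 1404 regions (1.21%, against 0.528% of all). The median log2 difference over the 1404 regions was 0.00435, and over all regions -0.00145. In the duodenum 8 of 1085 tested regions were called, 6 higher and 2 lower (0.463% of all regions tested there, 0.423% higher and 0.0398% lower). In the jejunum 6 of 1182 were called, 4 higher and 2 lower (0.343% of all, 0.304% higher and 0.0391% lower). In the ileum 5 of 1257 were called, 4 higher and 1 lower (0.365% of all, 0.316% higher and 0.0491% lower). In the colon 10 of 1092 were called, 10 higher and 0 lower (0.542% of all, 0.513% higher and 0.0283% lower). Without ConvR mouse 5 the sums gave 8 calls. In the duodenum 5 were left without GermFree mouse 1 or 5, in the jejunum 2 without ConvR mouse 3 and 3 without ConvR mouse 5 or GermFree mouse 5, and in the colon 6 without ConvR mouse 3. In the ileum 3 were left without ConvR mouse 3 or 5 or GermFree mouse 1, 2, 5 or 6.

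In GermFree mice 4 regions were higher in the sums and in each of the 4 sections, in 2 neighbouring pairs. The first pair lay on chromosome 5 over the predicted gene Gm36470, beside Cdk6, the gene of a kinase that drives entry into the cell cycle. The region at 3317780 to 3321251 had summed levels from 20.95 to 32.7 CPM in GermFree mice, with a median of 26.9. ConvR mice 1 to 5 had 17.97, 15.8, 12.4, 14.8 and 15.7 CPM, so the groups did not overlap. On the log2 scale they differed by 0.81 (SE 0.0932; edgeR adjusted p = 4.16e-08, n = 7 and 5).

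The second region of that pair, 3332400 to 3338107, is within 5 kb of Cdk6. GermFree levels ran from 31.6 to 48.8 CPM with a median of 41.3, and ConvR mice 1 to 5 had 25.8, 26.6, 21.9, 27.45 and 27.0 CPM. Again the groups did not overlap (log2 0.67, SE 0.082; edgeR adjusted p = 1.65e-07). The other 19 Cdk6 regions of the interval were not called in the sums.

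The second pair lay on chromosome 13 between predicted genes, nearest to Gm9616 and Gm8616. At 3314171 to 3316533 GermFree mice ran from 12.6 to 22.3 CPM with a median of 18.3, and ConvR mice 1 to 5 had 11.04, 11.8, 4.94, 9.07 and 7.21 CPM. All GermFree mice were higher than all ConvR mice (log2 1.05, SE 0.126; edgeR adjusted p = 9.92e-08). At 3340500 to 3347702 the GermFree range was 33.0 to 58.0 CPM with a median of 45.4, and ConvR mice had 32.0, 33.4, 24.3, 27.7 and 24.3 CPM. Here 6 of the 7 GermFree values exceeded every ConvR value (log2 0.73, SE 0.094; edgeR adjusted p = 5.02e-07). All 4 regions kept their call in the sums without any single mouse and without ConvR mice 1 and 3. DESeq2 called all 4 in the sums, the duodenum and the colon. In the jejunum it did not call the first chromosome 13 region or the second chromosome 5 region. In the ileum it called only the second chromosome 13 region. Without ConvR mice 1 and 3 those jejunum calls were lost, as were both chromosome 5 calls in the ileum.

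Section by section, the 4 regions were higher in GermFree mice throughout. On chromosome 5 the first region averaged 26.9 ± 4.81 CPM in GermFree and 14.9 ± 5.23 in ConvR duodenum, 26.9 ± 5.72 and 16.4 ± 2.25 in jejunum, 23.1 ± 7.03 and 14.2 ± 3.10 in ileum and 31.5 ± 5.20 and 15.7 ± 3.90 in colon (SD, n = 7 and 5). The log2 differences were 0.79, 0.69, 0.70 and 1.03 in that order. The first region of chromosome 13 had log2 differences of 0.86, 0.70, 1.41 and 1.34. The joint test of whether such differences vary with the section is given further on and called no region. In the ileum the chromosome 5 calls were the least firm, lost for the first region without ConvR mouse 3, 4 or 5 or GermFree mouse 1, 2, 5 or 6 (log2 0.60 to 0.72), and for the second without any ConvR mouse but 4 or any GermFree mouse but 3 and 4 (0.48 to 0.57). In the jejunum the second chromosome 5 region and the first chromosome 13 region each lost the call without any 1 of 5 mice (ConvR 3, 4 or 5, GermFree 1 or 5), with log2 values of 0.38 to 0.49 and 0.60 to 0.65.

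**Figure D4:**
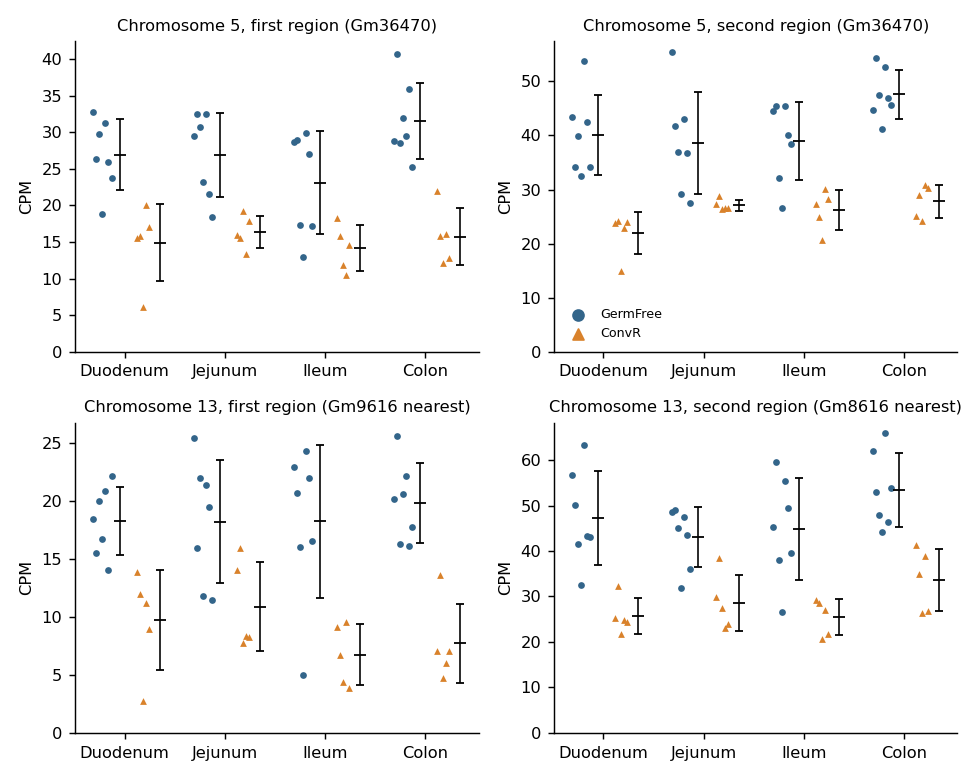
Levels (CPM, axes from 0) of the 4 regions higher in GermFree mice in every section, with 1 point per mouse (circles GermFree, n = 7, triangles ConvR, n = 5) and bars for mean ± SD. The GermFree means lie above the ConvR means in each section of each panel, for example 31.5 against 15.7 CPM in the colon for the first chromosome 5 region.

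The titles of the libraries begin with codes, 5 of which are shared by a GermFree and a ConvR mouse, and what the codes stand for is not given in the labels. At all 4 of these regions the GermFree mouse lay above the ConvR mouse of the same code in 5 of 5 pairs. With the code as a block 12 regions were called in the sums, 11 of them among the 13, and Cpt1a (log2 -0.36; edgeR adjusted p = 0.0589) and Gm6667 (0.60; edgeR adjusted p = 0.0812) were lost. In the sums the 4 regions kept their calls under this block, but not in every section. The first chromosome 13 region, near Gm9616, was lost in the duodenum (0.74; edgeR adjusted p = 0.0667), and both Gm36470 regions were lost in the ileum (0.68 and 0.48; edgeR adjusted p = 0.0519 and 0.318). Calls lost under it elsewhere were those of Scaf8 in the jejunum (-1.08), Evi5l (-0.93), the region near Bpnt2 (0.48) and Gm30674 (0.63) in the duodenum, and the regions near Gm10232 (0.79), Gm4828 (0.99) and Vmn1r261 (0.46) in the colon.

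On chromosome 17 6 regions were called in the sums over less than 2 Mb, and they did not share a direction. Higher in GermFree mice were a region at 3022377 to 3023602 nearest to Gm10232 and a region at 4861228 to 4861956 nearest to Gm4828. At the latter GermFree mice ran from 5.49 to 8.64 CPM with a median of 6.18, and ConvR mice 1 to 5 had 2.62, 4.07, 2.54, 4.60 and 3.45 CPM. The groups did not overlap (log2 0.86, SE 0.15; edgeR adjusted p = 0.000244). The Gm10232 region had 8.96 ± 2.39 CPM in GermFree and 5.23 ± 1.32 in ConvR mice (SD, n = 7 and 5; log2 0.77, SE 0.156; edgeR adjusted p = 0.00299), and was not called without ConvR mouse 5 (0.63).

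Lower in GermFree mice were 4 of the 6. A region at 4648165 to 4648767, nearest to 4930517M08Rik, ran from 3.24 to 4.32 CPM with a median of 3.89, while ConvR mice 1 to 5 had 5.24, 6.63, 6.64, 6.83 and 5.38 CPM. All 7 GermFree mice were below all ConvR mice (log2 -0.68, SE 0.131; edgeR adjusted p = 0.00134), and the call held without any single mouse. In Tiam2, which encodes an activator of the GTPase Rac (3359155 to 3359958), levels were 4.54 ± 1.21 CPM in GermFree and 7.05 ± 0.808 in ConvR mice, again without overlap (log2 -0.62, SE 0.145; edgeR adjusted p = 0.0218). The call was lost without ConvR mouse 1, 3 or 5 or GermFree mouse 4, 6 or 7 (-0.63 to -0.51). In Gm34035 (3272616 to 3273841) they were 5.91 ± 0.79 and 8.25 ± 1.18 CPM (log2 -0.50, SE 0.119; edgeR adjusted p = 0.0272), with the call lost without ConvR mouse 2 or 5 or GermFree mouse 1, 6 or 7 (-0.50 to -0.43).

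The fourth, at Gm34259 (4625871 to 4626954), had high values in few mice. ConvR mice 1 to 5 had 66.8, 5.21, 45.0, 5.34 and 12.9 CPM, and GermFree mice ran from 3.67 to 15.2 with a median of 5.03. The high values are ConvR mice 1 and 3, and the ranges overlapped. The fitted log2 value of -1.93 (SE 0.372; edgeR adjusted p = 0.00136) was -0.36 without those 2 mice, and was then not called. It was also called in the duodenum, jejunum and ileum, with log2 values of -2.13, -1.28 and -2.73 that were -0.064, 0.21 and -0.91 without those mice. Its coefficient of variation over the 12 mice was 141%, against a median of 13.9% over the 1404 regions. In the jejunum the region of Scaf8, which encodes a regulator of RNA polymerase II (3140246 to 3141008), was lower in GermFree mice by the test (log2 -1.05, SE 0.265; edgeR adjusted p = 0.0343). ConvR mice 1 to 5 had 6.36, 3.90, 17.4, 6.41 and 7.40 CPM there and GermFree mice ran from 2.11 to 4.99 with a median of 3.54. Without ConvR mouse 3 the log2 difference was -0.64 and not called, and the call was lost without ConvR mouse 5 or GermFree mouse 4, 5 or 6 as well (-1.07 to -0.93).

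**Figure D5:**
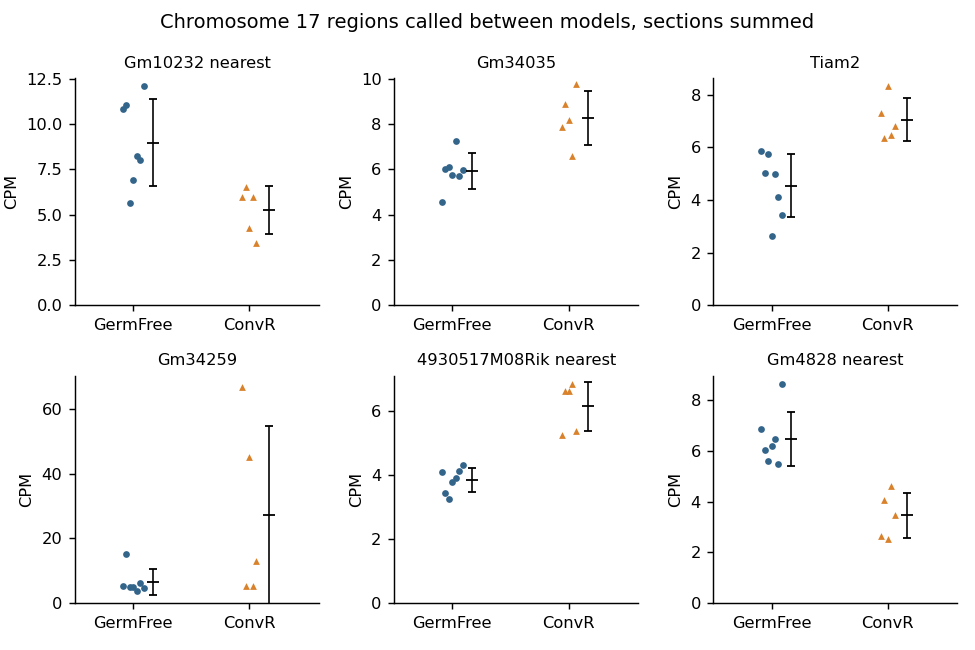
Levels (CPM of the summed sections, axes from 0) of the 6 called chromosome 17 regions, with 1 point per mouse (circles GermFree, n = 7, triangles ConvR, n = 5) and bars for mean ± SD. The lower bar at Gm34259 runs below 0 and is not shown there. The regions nearest to Gm10232 and Gm4828 are higher in GermFree mice and the other 4 lower, and at Gm34259 ConvR mice 1 and 3 stand apart at 66.8 and 45.0 CPM.

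Of the 3 remaining calls in the sums, that of Cpt1a, which encodes a rate-setting step of mitochondrial fatty acid import, was lower in GermFree mice (chromosome 19, 3364273 to 3366708). GermFree levels ran from 9.83 to 13.1 CPM with a median of 11.3, below the ConvR values of 14.04, 16.1, 14.1, 15.4 and 13.8 (log2 -0.37, SE 0.0834; edgeR adjusted p = 0.0164). The call was lost without ConvR mouse 2 or 4 or GermFree mouse 6 or 7 (-0.35 to -0.32). DESeq2 (-0.36) and a block by mouse number (-0.30) lost it too. Of the 7 Cpt1a regions only this 1 was called in the sums. The most strongly captured of them (3368758 to 3373879) had a log2 difference of 0.05 (edgeR adjusted p = 0.953). A region of Gm6667 on chromosome 10 (3232222 to 3232990) was higher, with 6.98 ± 1.56 against 4.50 ± 0.794 CPM (log2 0.61, SE 0.145; edgeR adjusted p = 0.0289), and lost its call without ConvR mouse 1, 2, 3 or 5 or GermFree mouse 1, 2, 5 or 7 (0.53 to 0.62). A region of chromosome 6 with no gene within 50 kb (4263082 to 4263500) was higher as well, with 4.47 ± 0.555 against 2.56 ± 0.989 CPM (log2 0.75, SE 0.169; edgeR adjusted p = 0.0151), and was not called without ConvR mouse 1, 3 or 5 (0.64 to 0.71).

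Some regions were called in 1 section only, 10 of the 15 called in any. In the colon the region of Bambi, which encodes a decoy receptor of the BMP and TGF-beta pathways (chromosome 18, 3511304 to 3512374), ran from 5.61 to 9.60 CPM in GermFree mice with a median of 7.88. ConvR mice 1 to 5 had 3.87, 4.53, 3.45, 2.01 and 3.31 CPM, with no overlap (log2 1.10, SE 0.272; edgeR adjusted p = 0.0179). That call was lost without ConvR mouse 3, 4 or 5 or GermFree mouse 2 (0.996 to 1.102). In the duodenum a region of chromosome 4 nearest to Bpnt2, a phosphatase gene (4744723 to 4748363), gave 24.6 ± 3.5 against 16.8 ± 2.2 CPM (log2 0.55, SE 0.135; edgeR adjusted p = 0.0285) and lost its call without ConvR mouse 4 or 5 or GermFree mouse 1, 5 or 7 (0.47 to 0.55). A second region of Evi5l (chromosome 8, 4205804 to 4206710) was lower, with 4.63 ± 1.09 against 8.92 ± 1.80 CPM and no overlap (log2 -0.94, SE 0.231; edgeR adjusted p = 0.0316), a call lost without ConvR mouse 2, 3 or 4 or GermFree mouse 1, 2 or 5 (-0.93 to -0.82). Gm30674 was higher in the duodenum, with 18.5 ± 4.37 against 11.3 ± 3.61 CPM (SD, n = 7 and 5; log2 0.68, SE 0.171; edgeR adjusted p = 0.038), and was lost without ConvR mouse 3, 4 or 5 or GermFree mouse 1, 2, 3, 5 or 7 (0.58 to 0.69).

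The other colon calls were higher in GermFree mice too. The region near Gm3749 on chromosome 16 (3277183 to 3284838) gave 76.1 ± 12.6 against 56.7 ± 12.8 CPM (log2 0.45, SE 0.118; edgeR adjusted p = 0.0436), lost without ConvR mouse 2, 3 or 5 or GermFree mouse 1, 4, 5 or 7 (0.32 to 0.45). The region near Vmn1r261 on chromosome 6 (3130568 to 3134365) gave 25.5 ± 3.04 against 17.9 ± 5.05 CPM (log2 0.54, SE 0.142; edgeR adjusted p = 0.0425), lost without ConvR mouse 2, 3 or 4 or GermFree mouse 1, 3, 5, 6 or 7 (0.44 to 0.54). Called in the sums and in the colon were Gm6667 (colon log2 1.01; edgeR adjusted p = 0.0237) and the regions near Gm10232 (0.97; edgeR adjusted p = 0.0049) and Gm4828 (1.13; edgeR adjusted p = 0.00819). In the colon Gm6667 was lost without ConvR mouse 2 or 3 or GermFree mouse 1, 2 or 4 (0.85 to 1.03), the Gm10232 region without ConvR mouse 5 (0.80) and the Gm4828 region without GermFree mouse 7 (0.9996).

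A joint test over the 4 sections asked if the gap between the groups changed along the gut. EdgeR called 0 of the 1404 regions (76 at an unadjusted p under 0.05; 0.0% of all regions called) and DESeq2 0. Blocking on the mouse, edgeR called 1. The smallest p values belonged to regions at Vmn1r261, Bambi, Gm32966, Gm10232 and Gm7390, each with an edgeR adjusted p of 0.986.

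By function, few regions within or near the listed genes were called, and few were called over all regions. Those shares were 0.475% in the sums, 1.21% for colon against duodenum and 2.19% for colon against ileum. Lists this short can hold few calls at such shares, so their counts say little about the functions. Of 16 genes of DNA methylation and chromatin 12 had a region, 49 in all, and none passed between GermFree and ConvR mice in the sums (median log2 -0.00746, against -0.00145 over all regions). The most strongly captured Dnmt3a region (chromosome 12, 3870242 to 3874526), inside the gene, had 19.2 ± 1.23 CPM in GermFree and 21.3 ± 1.30 in ConvR mice (log2 -0.15, SE 0.0687; edgeR adjusted p = 0.712). A region of Morc2a, an epigenetic silencing gene (chromosome 11, 3672476 to 3675284), was the only region of this list higher in colon than ileum (log2 0.49; edgeR adjusted p = 0.00946).

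In the imprinted cluster of chromosome 6, where genes such as Peg10 and Sgce are expressed from the paternal copy, 7 of 10 genes had a region, and 0 of 27 regions passed in the sums or in either colon comparison (median log2 0.0109 in the sums). Peg10 (4754313 to 4759765) gave 27.0 ± 1.89 CPM in GermFree and 27.3 ± 1.90 in ConvR mice, and Sgce (4733547 to 4739312) 26.0 ± 1.64 and 25.4 ± 2.17. Of 25 genes of metabolism and transport 16 had a region, and 1 of 80 regions passed in the sums, that of Cpt1a described above (median log2 0.0026). Adcy3, an adenylyl cyclase gene (chromosome 12, 4206242 to 4217131), gave 52.5 ± 3.69 and 52.5 ± 1.83 CPM, and Oxct1, a gene of ketone body use (chromosome 15, 4053413 to 4060026), 31.4 ± 1.86 and 30.02 ± 2.0.

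Of 26 genes listed as immune, 24 of which matched a RefSeq symbol, 16 had a region, and 1 of 45 regions passed in the sums (median log2 -0.042). It was the chromosome 5 region that overlaps Gm36470 and lies within 5 kb of Cdk6, a cell cycle gene placed on this list. In the sums, regions at C6, a complement gene, Ptprcap, a lymphocyte phosphatase partner, and Tcirg1, a proton pump gene, had log2 differences of 0.06, -0.13 and -0.07 (edgeR adjusted p between 0.815 and 0.959). For colon against duodenum 1 of the 45 regions was called higher and 1 lower (1.21% of all regions were called), and for colon against ileum 0. Those calls lay at other regions of Cdk6 and Ptprcap. Of 21 members of families of similar copies, 20 of them matched, 4 had a region, with 11 regions. In the sums 1 of the 11 passed, that of Gm34259, while 5 were higher and 1 lower in colon than duodenum and 7 higher in colon than ileum (median log2 0.335 and 0.33, against -0.00241 and -0.00366 over all regions). These lists were drawn up with earlier results of the same libraries known, so their counts are a description.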

How the data were processed

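DNA of 48 intestinal sections was sheared, captured with a methyl-CpG-binding protein (MethylMiner) and sequenced single-end, per the labels' protocols. Trimming used Trim Galore (0.3.7) with cutadapt (1.4.2), and peaks were called with MACS2 on mm10 and counted with featureCounts, per the submitters' processing notes. The deposited values are whole-number counts per region, not normalized, and the score of each region in the peak list is the authors' own. The sources used here do not give whether peaks were called on pooled samples or how reads matching several places were counted. Each name in the peak list carries the GermFree label.

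Here, CPM used TMM factors over all 48 libraries, or over the summed counts of each mouse. Regions were tested over the whole table with edgeR 4.0.16 (filterByExpr, quasi-likelihood test, Benjamini-Hochberg adjusted p under 0.05) in R 4.3.3, and with DESeq2 1.42.0 as an alternative, after a test on simulated data. Shares of counts were compared with exact permutation tests over mice (SciPy 1.17.1), of which 792 relabellings allow two-sided p = 0.00253 at the smallest. Library totals of 1007560 to 3033782 gave a median of 7 to 23 counts per region, so single narrow regions carry wide counting error. The labels give a mouse ID and, in the titles, a code shared by some mice whose meaning is not stated. The p-values between GermFree and ConvR mice and those of the shares measure the spread between these mice. The main edgeR tests between sections, and the joint test, took all 48 libraries in groups of model and section without a term for the mouse. Their p-values therefore treat the libraries of a mouse as independent, and the fit with the mouse as a block is an alternative. Sections with the same ID come from the same animal and are paired by it, although their deviations correlate weakly (median r of 0.02 over 72 pairs). Genes and promoters come from RefSeq (GRCm38.p6), and a gene belongs to a region that overlaps it or lies within 5 kb, with the nearest gene within 50 kb named otherwise.

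Per comparison, all called regions were named where 10 or fewer passed, otherwise drawn from the 10 with the largest difference per direction, 1 per gene or 100 kb, and from the 5 smallest p where fewer than 5 passed. All 13 regions called in the sums are named, including pairs on 1 gene. A region named by this rule for colon against ileum is not reported here. The regions and gene lists were chosen with earlier results of these data known. Alternatives were scaling, filter, tool, the position limit, a score limit, autosomes alone, blocks and leaving out mice.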

Additional observations from a re-analysis of the deposited data

Results flagged for a closer look

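Of 38 groups of mice examined for a value far from the others, 2 held one, and chance gives about 1 in 20 groups. At the Gm34259 region of chromosome 17, GermFree mouse 2 had 15.21 CPM in the summed sections, against a GermFree median of 5.03. In the ileum, GermFree mouse 4 had 1.666% of its counts in the 1404 regions, against a GermFree median of 1.889% and a highest value of 1.915%.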

How the results depend on the processing

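The capture density ratio of 0.39 (log2) kept its direction and call under the alternatives run, but its size moved: 0.174 without the 10 densest regions, 0.649 with a limit of 4 Mb, 0.284 with a limit of 6 Mb and 0.0201 at or above 3.5 Mb. Without single mice it ran from 0.385 to 0.397. Over the 85 named results, 1274 of 1623 alternative values kept direction and status (called or not), 347 lost the call, 1 gained one and 1 reversed, the jejunum difference at Gm34259 (0.2149 without ConvR mice 1 and 3, an alternative chosen with earlier results known). The kept values include 90 of 90 for ileum against duodenum and 89 of 90 for jejunum against duodenum, where no named region was called. Alternatives that gave a region no adjusted p were left out of the total, not counted as lost. Unless stated, the causes were not tested.

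Counts of called regions between GermFree and ConvR mice, in the order sums, duodenum, jejunum, ileum and colon, were 13, 8, 6, 5 and 10. DESeq2 gave 8, 4, 2, 1 and 4, and leaving out ConvR mice 1 and 3 gave 8, 4, 2, 2 and 5. Starts at or above 3.5 Mb, fewer regions by construction and chosen after seeing the data, gave 4, 3, 1, 1 and 2. In the duodenum 5 were called with a limit of 4 Mb and 5 with the title code as a block. Without single mice the counts ran from 8 to 15, 5 to 12, 2 to 7, 3 to 5 and 6 to 11. For such alternative fits, here and between sections, the share of all regions called is not given. A replicate block by mouse number gave 9, 7, 5, 4 and 8. Same-numbered mice of the groups are different animals, of which 4 of 5 pairs share a title code. Their deviations had a median correlation of -0.0774 over 5 pairs, and 0 mice correlated best with their own number.

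For colon against duodenum 12 regions were called at or above 3.5 Mb, and 79 with the mouse as a replicate block. For colon against ileum these counts were 21 and 106. DESeq2 called 38 regions against the duodenum and 45 against the ileum, of which 32 and 44 were among the edgeR calls. It gave an adjusted p for only 196 and 369 of the 1404 regions, so the other regions could not be called. Without single mice the edgeR counts ran from 0 to 67 and from 16 to 98. The mouse block gave 1 call for jejunum against duodenum and 1 for the joint test of model by section, and 0 were called in these and in ileum against duodenum without any single mouse.

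Differences in share (percentage points) reversed at or above 3.5 Mb to -0.0136 for colon against duodenum, -0.0118 for colon against ileum, -0.00184 for ileum against duodenum and -0.00631 for jejunum against duodenum. Without single mice they ran from 0.103 to 0.122, 0.0777 to 0.114, 0.00293 to 0.03 and -0.00624 to 0.0218. Without the 10 densest regions, ileum against duodenum was -0.00168. GermFree minus ConvR was 0.0113, but -0.00577 with a limit of 6 Mb, -0.0121 at or above 3.5 Mb and -0.00787 to 0.0271 without single mice. At or above 3.5 Mb it was -0.0171 in the duodenum, -0.0154 in the colon and -0.0147 in the ileum. In the ileum it was 0.00358 without the 10 densest regions, 0.0115 with autosomal counts as the total, 0.00894 with a limit of 4 Mb and -0.0272 to 0.0384 without single mice. In the colon it ran from 0.0273 to 0.0882. The GermFree minus ConvR density ratio was -0.00942 at or above 3.5 Mb and -0.000151 to 0.031 without single mice.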
